A study of Mus musculus with 30 samples.

Results

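The 10 genes Pla2g7, Calcrl, Btbd3, Rras2, Ncs1, Ccdc125, Camk2a, Acacb, Cep170b and Mgst1, of 54146 genes in the count table, were followed across 30 RNA-seq libraries of the mouse macrophage-like cell line J774A.1. They were selected on their measured levels, for strong differences between knockout (KO) and wild type (WT) cells that both KO clones shared. The KO-WT differences below therefore describe selected genes and carry no test. The tests concern the IFNG response, the clones of the same genotype and other genes. The 10 genes fell into a group of 4 that were close to absent in 1 genotype (Pla2g7 in WT, and Rras2, Ncs1 and Ccdc125 in KO) and a group of 6 that were expressed in both and differed by an absolute log2 fold change of 0.95 to 1.81. Only the first group was near an on and off pattern.

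The libraries came from 3 WT clones (WT1, WT2 and WT3), which were grown from single J774A.1 cells and had not been electroporated, and from 2 KO clones (KO1 and KO2). Both KO clones were homozygous for a CRISPR deletion of B2_Mm2.Dicer1, a rodent transposon copy of the B2 SINE family in the first intron of Dicer1 on chromosome 12. Each clone was left untreated (UT) or was given 100 ng/mL of recombinant IFNG for 4 h. Each combination was sequenced in 3 libraries, so that 18 libraries were WT and 12 were KO. J774A.1 is a tumour-derived line and each clone is 1 such line, so that libraries of a clone do not stand for further clones, and a p-value from a comparison of libraries measures the spread between libraries. Electroporation cannot be told apart from the deletion, since every KO clone and no WT clone had it.

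Counts assigned to genes ranged from 15566122 to 37992642 per library (median 23682133.5). Levels are given as CPM, counts scaled to the size of the library after TMM normalization. Dicer1, whose intron carries the deletion, had 105 to 128 CPM in the 3 untreated WT clones, 71.5 in KO1 and 105 in KO2, and 136 to 161, 74.97 and 99.6 CPM with IFNG. Reads on its exons do not check an intronic deletion. All 9 macrophage markers examined were expressed, with a summed level of 4103 to 5862 CPM per WT library and 5941 to 7004 CPM per KO library. Single markers varied widely over the libraries, among them Lyz2 (787 to 2802 CPM), Fcgr1 (40.2 to 388), Adgre1 (F4/80, 9.27 to 294) and Mertk (7.20 to 59.8). The summed T cell, B cell, neuron, and hepatocyte and adipocyte markers stayed at or below 0.184 CPM in every library and the summed mast cell markers at or below 0.951 CPM. Of the neutrophil, dendritic cell, fibroblast and endothelial markers, 1 of 4, 1 of 3, 1 of 3 and 2 of 4 reached 1 CPM in a group. In these bulk libraries, fewer cells that express a gene and less RNA per cell cannot be told apart.

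The genes belong to lipid, receptor, calcium and redox pathways, several of them better known from neurons than from macrophages. Pla2g7 encodes the secreted platelet-activating factor (PAF) acetylhydrolase, also called lipoprotein-associated phospholipase A2, a macrophage product that cleaves PAF and oxidized phospholipids. Calcrl encodes the receptor chain that binds calcitonin gene-related peptide or adrenomedullin together with a RAMP partner. Btbd3 encodes a BTB-domain protein known from the shaping of neuronal dendrites. Rras2 (TC21) is a small GTPase of the Ras family, Ncs1 a calcium-binding partner of phosphatidylinositol 4-kinase, Camk2a the alpha chain of calmodulin-dependent kinase II, and Ccdc125 a coiled-coil protein linked to cell migration. Acacb is the acetyl-CoA carboxylase at mitochondria, whose product malonyl-CoA inhibits carnitine palmitoyltransferase 1. Cep170b is a centrosome and microtubule protein, and Mgst1 a membrane-bound glutathione transferase that protects against lipid peroxides.

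Promoter windows, from 250 bases before to 50 bases after a RefSeq start (build GRCm38.p6), were at hand for 9 of the 10 genes. They are printed for the 4 genes that were near absent in 1 genotype and for the second start of Mgst1. Capitals mark a match to TTCNNNGAA, the core of the interferon-gamma-activated sequence (GAS). The second start of Mgst1 held a match, while its first start, not printed, held none.
Pla2g7, chr17:43568201-43568500, plus strand: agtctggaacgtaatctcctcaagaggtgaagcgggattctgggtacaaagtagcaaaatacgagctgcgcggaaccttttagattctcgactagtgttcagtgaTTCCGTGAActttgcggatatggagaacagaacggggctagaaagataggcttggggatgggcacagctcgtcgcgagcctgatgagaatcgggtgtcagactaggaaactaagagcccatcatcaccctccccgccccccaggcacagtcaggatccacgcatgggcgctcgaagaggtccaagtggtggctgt
Rras2, chr7:114117732-114118031, minus strand: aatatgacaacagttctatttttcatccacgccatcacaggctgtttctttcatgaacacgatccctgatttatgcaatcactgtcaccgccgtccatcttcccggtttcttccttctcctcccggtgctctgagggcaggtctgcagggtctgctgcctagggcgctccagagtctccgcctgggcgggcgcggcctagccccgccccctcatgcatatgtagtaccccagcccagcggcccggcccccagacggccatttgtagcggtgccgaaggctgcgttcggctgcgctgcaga
Ncs1, chr2:31245673-31245972, plus strand: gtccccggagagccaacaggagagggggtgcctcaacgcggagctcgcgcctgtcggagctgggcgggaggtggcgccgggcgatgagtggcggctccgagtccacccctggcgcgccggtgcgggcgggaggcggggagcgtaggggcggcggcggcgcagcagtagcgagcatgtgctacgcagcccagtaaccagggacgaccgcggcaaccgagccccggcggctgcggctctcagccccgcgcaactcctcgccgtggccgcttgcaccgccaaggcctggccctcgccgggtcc
Ccdc125, chr13:100669231-100669530, plus strand: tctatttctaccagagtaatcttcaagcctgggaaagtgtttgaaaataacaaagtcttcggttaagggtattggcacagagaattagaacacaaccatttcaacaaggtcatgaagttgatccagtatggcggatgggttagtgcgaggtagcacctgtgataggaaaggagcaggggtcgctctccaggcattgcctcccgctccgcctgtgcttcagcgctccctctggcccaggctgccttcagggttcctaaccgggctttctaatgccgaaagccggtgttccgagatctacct
Mgst1 second start, chr6:138141337-138141636, plus strand: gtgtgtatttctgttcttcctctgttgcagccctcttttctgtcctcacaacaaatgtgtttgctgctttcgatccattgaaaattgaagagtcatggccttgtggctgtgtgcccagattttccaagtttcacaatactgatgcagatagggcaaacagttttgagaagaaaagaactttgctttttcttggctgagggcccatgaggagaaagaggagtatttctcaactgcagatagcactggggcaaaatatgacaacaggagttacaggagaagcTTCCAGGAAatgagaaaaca

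Both strands of 11 windows were searched. TTCNNNGAA, which reads the same on both strands, was found in the window of Pla2g7, from base -145, and at the second start of Mgst1, from base 31 counted with the start as base 1. It occurs in 8.30% of all 32851 RefSeq promoter windows of this length. GAAANNGAAA, the core of the interferon-stimulated response element, was in none of the 11 and is in 3.44% of all. TATAAA was found in the window of Acacb and is in 13.6% of all. The RefSeq start used lies 18983 bases inside the annotated span of Acacb and 1719 bases inside that of Cep170b. The windows of Ncs1 and Cep170b were rich in GC (76.0% and 77.0%) with 40 and 44 CpG, Rras2 held 20 CpG, Pla2g7 17 and Ccdc125 11, beside a median of 7 and an upper quartile of 20 over all windows. A match is a description of letters and not a binding site.

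In the mm10 annotation, Calcrl (ENSMUSG00000059588.13, chr2:84330626-84425411, minus strand), Btbd3 (ENSMUSG00000062098.11, chr2:138256565-138589292) and Ncs1 (ENSMUSG00000062661.6, chr2:31245823-31295989) share chromosome 2 but lie far apart. Pla2g7 (ENSMUSG00000023913.17) is at chr17:43568098-43612201, Rras2 (ENSMUSG00000055723.6) at chr7:114046782-114117781 (minus strand), Ccdc125 (ENSMUSG00000048924.14) at chr13:100669717-100697240, Acacb (ENSMUSG00000042010.16) at chr5:114146535-114250761, Cep170b (ENSMUSG00000072825.11) at chr12:112720455-112746592 and Mgst1 (ENSMUSG00000008540.11) at chr6:138140316-138156755. Camk2a (ENSMUSG00000024617.16) lies on chromosome 18. Genes with no strand given are on the plus strand. Cep170b is on the chromosome that carries the deletion, 7.97 Mb from Dicer1. None of the 10 shares exon sequence with another gene on its own strand, and the counting used strand. An antisense transcript, 1700071M16Rik, covers 319 bases of the exon sequence of Pla2g7.

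Pla2g7 was all but silent in WT cells and was expressed in both KO clones. The 9 untreated WT libraries held 2 counts of it in all, and 7 of them had none. With IFNG the WT libraries held 26 counts (lowest 0, median 0.165 and highest 0.448 CPM). The lowest, median and highest of the 6 KO libraries were 14.5, 18.9 and 25.9 CPM untreated and 21.4, 25.3 and 28.6 CPM with IFNG. Every KO library thus stood far above every WT library. Against the summed WT counts, KO1 was 1650.0-fold higher untreated (95% exact interval of the ratio of counts, 456 to 13641) and KO2 2477-fold (685 to 20466). With IFNG these ratios were 153 (104 to 235) and 184 (125 to 283). Intervals of this kind cover counting error only. On the length-corrected FPKM scale, Pla2g7 was above 19.4% of the 29004 genes with any count in untreated WT cells and above 77.3% of them in untreated KO cells.

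Calcrl and Btbd3 were expressed in both genotypes and stood higher in KO. Calcrl had 7.09, 12.98 and 15.2 CPM (lowest, median and highest of 9) in untreated WT libraries and 19.1, 24.997 and 27.03 CPM (of 6) in untreated KO libraries. With IFNG it had 3.44, 4.05 and 5.31 CPM in WT and 12.04, 14.7 and 16.7 CPM in KO. Its KO-WT log2 fold change (log2FC) was 1.04 ± 0.15 (SE) untreated and 1.81 ± 0.10 with IFNG. Btbd3 had 8.24, 9.06 and 9.87 CPM in untreated WT and 16.5, 17.9 and 18.4 CPM in untreated KO libraries, and 6.93, 7.74 and 8.06 against 15.6, 16.2 and 17.4 CPM with IFNG. Its log2FC was 0.95 ± 0.05 and 1.105 ± 0.05. For both genes all KO libraries lay above all WT libraries of the same treatment.

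Rras2, Ncs1 and Ccdc125 were lowly expressed in WT cells and close to absent in KO cells. Rras2 had 2.95, 4.06 and 5.61 CPM in untreated WT libraries and 3.42, 4.30 and 7.11 CPM with IFNG, against 0.110, 0.276 and 0.456 CPM and 0.106, 0.325 and 0.433 CPM in KO. WT cells held 11.5-fold (7.88 to 17.4) more Rras2 than KO1 and 24.4-fold (14.7 to 43.7) more than KO2 when untreated, and 14.9-fold more than either with IFNG (9.75 to 23.8 and 10.3 to 22.6). The ranges of the genotypes did not touch.

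Ncs1 had no count in any of the 6 KO1 libraries. With a floor of 3 counts over the 3 libraries of a group, the pooled WT libraries were at least 69.8-fold higher than KO1 untreated and at least 53.3-fold higher with IFNG. The exact interval of this pooled ratio, which also counts the error of the WT counts, had lower ends of 56.6 and 43.1. The bounds do not hold for each WT clone: WT1 had 1.08 CPM untreated and 0.828 with IFNG, where the KO1 floor was 0.0398 and 0.0434 CPM. KO2 kept 15 counts untreated (0.134 to 0.243 CPM) and 7 with IFNG (0.0638 to 0.0999 CPM), 15.9-fold (9.56 to 28.6) and 29.2-fold (14.1 to 73.1) below WT. The WT libraries had 0.985, 2.77 and 5.06 CPM untreated and 0.610, 2.21 and 4.30 CPM with IFNG. Ccdc125 had 0.335, 2.44 and 3.75 CPM in untreated WT libraries, whereas the 6 untreated KO libraries held 5 counts in all and at most 0.0414 CPM. Untreated WT cells exceeded KO1 48.5-fold (16.5 to 236) and KO2 82.9-fold (22.8 to 687) on 3 and 2 counts, and with IFNG 37.5-fold (10.2 to 312) and 15.99-fold (7.21 to 44.1) on 2 and 6 counts. With IFNG the genotypes overlapped, since the highest KO2 library (0.200 CPM, 4 counts) passed the lowest WT1 library (0.195 CPM, also 4 counts).

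Camk2a, Acacb, Cep170b and Mgst1 were expressed in every library and stood lower in KO. Camk2a had 7.94, 8.55 and 9.28 CPM in untreated WT libraries and 3.50, 3.77 and 4.13 CPM in untreated KO libraries, with 7.24, 8.82 and 9.84 against 3.61, 3.79 and 4.75 CPM after IFNG (log2FC -1.20 ± 0.06 and -1.12 ± 0.09). Acacb had 4.39, 4.81 and 7.65 against 2.23, 2.39 and 2.63 CPM untreated, and 6.40, 8.08 and 9.64 against 2.54, 2.91 and 3.88 CPM with IFNG (-1.16 ± 0.13 and -1.43 ± 0.10). In all 4 genes the ranges of the genotypes did not overlap within a treatment. Cep170b, the most abundant of the 10 in WT cells, had 30.02, 36.3 and 42.9 against 12.2, 14.2 and 14.7 CPM untreated, and 27.8, 32.9 and 35.8 against 10.9, 12.3 and 13.6 CPM with IFNG (-1.42 ± 0.09 and -1.39 ± 0.07). Mgst1 had 4.26, 5.22 and 6.45 against 1.53, 2.53 and 3.43 CPM untreated, and 8.63, 11.1 and 12.8 against 4.13, 4.46 and 4.99 CPM with IFNG (-1.03 ± 0.15 and -1.28 ± 0.08).

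**Figure D1:**
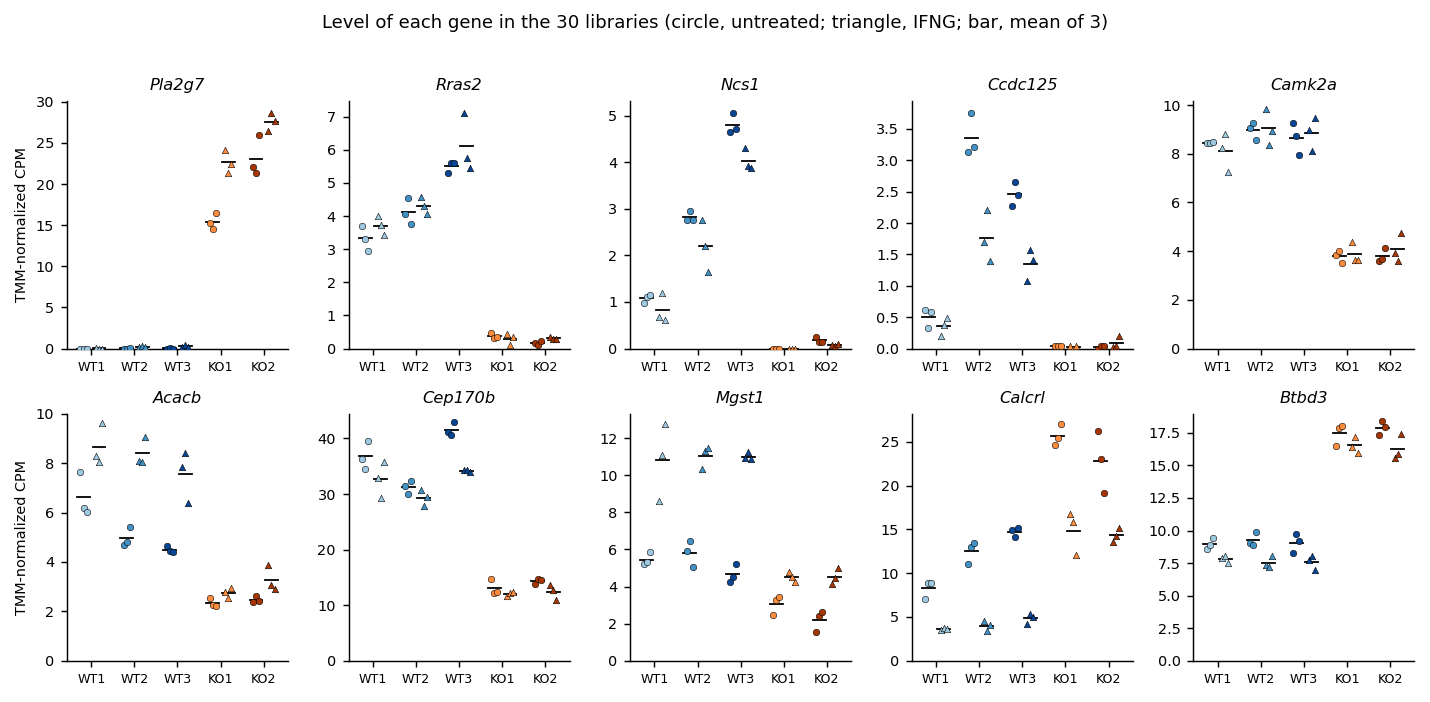
TMM-normalized CPM (y axis, from 0, a scale for each gene) of the 10 genes in the 3 libraries of each clone (x axis), untreated (circles) and with IFNG (triangles), with the mean of 3 as a bar. Pla2g7 is at or near 0 in the WT clones and at 14.5 CPM or more in every KO library, while Rras2, Ncs1 and Ccdc125 show the opposite pattern and the other 6 genes are expressed in all clones.

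Compared per exon length (FPKM), Cep170b was highest of the 10 in untreated WT cells (4.57 ± 0.59, SD, n = 9), followed by Mgst1 (2.64 ± 0.34) and Calcrl (2.42 ± 0.61), which overlapped. In untreated KO cells Pla2g7 was highest (6.62 ± 1.56, SD, n = 6), followed by Calcrl (4.97 ± 0.59) and Btbd3 (3.06 ± 0.12). The order of the genes thus differed between the genotypes, with Ncs1 (0.0188 ± 0.0221) and Ccdc125 (0.0128 ± 0.00636) at the bottom in KO. These are low to moderate levels: Cep170b was above 73.0% and Acacb above 56.1% of the genes with any count in untreated WT cells.

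The ranges of all KO and all WT libraries were apart, in the same direction, in both treatments for 9 of the 10 genes (Ccdc125 being the exception), beside 5.22% of 13433 genes tested in both treatments. All 10 passed the KO-WT threshold that was used for other genes below, in the same direction in both treatments, beside 18.3% of all. These shares describe how the genes were picked and nothing is read from them. By the gap between the nearest KO and WT clone means on the log2(CPM + 0.5) scale, the smaller of both treatments, Pla2g7 stood at rank 1 (gap 4.89) of the 1316 genes with a gap above 0 and higher in KO, Btbd3 at rank 5 (0.88) and Calcrl at rank 13 (0.61). Among the 1479 genes with a gap above 0 and lower in KO, Rras2 was at rank 2 (2.13), Ncs1 at 8, Cep170b at 11, Camk2a at 15, Acacb at 25, Ccdc125 at 45 (0.54) and Mgst1 at 47 (0.54). The list is therefore not the top of a ranking. Genes left out with large gaps were Adgre1 (gap 1.30), Tiam1, Oaf, Hacd1 and Elavl4 among those higher in KO, and Art3 (gap 2.97, the largest), Fosb, Zfp618, Cd28 and Ltbp4 among those lower.

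IFNG is the main macrophage-activating cytokine of T cells and acts through JAK kinases. The response of the 10 genes to it was not used to pick them and was tested in each clone by edgeR's quasi-likelihood test, with p-values adjusted over all genes (Benjamini-Hochberg) and called under 0.05. Of the 9 genes with enough counts in a WT clone, 3 changed in WT1, 5 in WT2 and 5 in WT3, where 21.2%, 34.5% and 36.1% of all genes tested changed. Of the 7 genes testable in a KO clone, 3 changed in KO1 and 4 in KO2, beside 29.4% and 27.1% of all genes. Pla2g7 was too low to test in single WT clones, and Rras2, Ncs1 and Ccdc125 in KO clones.

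Mgst1 and Calcrl changed in every clone, in opposite directions. Mgst1 rose by a log2FC of 0.98 ± 0.14 (SE) in WT1, 0.92 ± 0.11 in WT2, 1.26 ± 0.11 in WT3, 0.60 ± 0.15 in KO1 and 1.03 ± 0.17 in KO2, with adjusted p-values from 1.95e-08 (WT3) to 0.00691 (KO1). Its lowest IFNG library was above its highest untreated library in each clone. Calcrl had log2FC values of -1.20 ± 0.13 in WT1, -1.61 ± 0.12 in WT2, -1.61 ± 0.10 in WT3, -0.76 ± 0.10 in KO1 and -0.68 ± 0.10 in KO2 (edgeR adjusted p at most 8.05e-05). Its 3 IFNG libraries lay below its 3 untreated libraries in each clone.

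Acacb rose in all 3 WT clones, by 0.38 ± 0.12 in WT1, 0.78 ± 0.11 in WT2 and 0.76 ± 0.12 in WT3, and in KO2 by 0.43 ± 0.15 (adjusted p 0.0480), while its log2FC of 0.27 ± 0.15 in KO1 did not pass (0.218). The calls in WT1 (adjusted p 0.0378) and KO2 were lost in 5 and 6 of 10 alternative settings. Ccdc125 fell in WT2 (-0.92 ± 0.19) and WT3 (-0.87 ± 0.20), and had -0.48 ± 0.40 in WT1, where it was lowest and did not pass. Pla2g7 rose in KO1 by 0.59 ± 0.07 (edgeR adjusted p 2.95e-05) and in KO2 by 0.25 ± 0.08 (0.0270, lost when any of 3 libraries was left out). Cep170b fell in WT3 (-0.27 ± 0.05) and Btbd3 in WT2 (-0.28 ± 0.10, lost in 5 of 10 settings). Rras2, Ncs1 and Camk2a passed in no single clone, and the log2FC of Camk2a lay between -0.08 and 0.08.

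**Figure D2:**
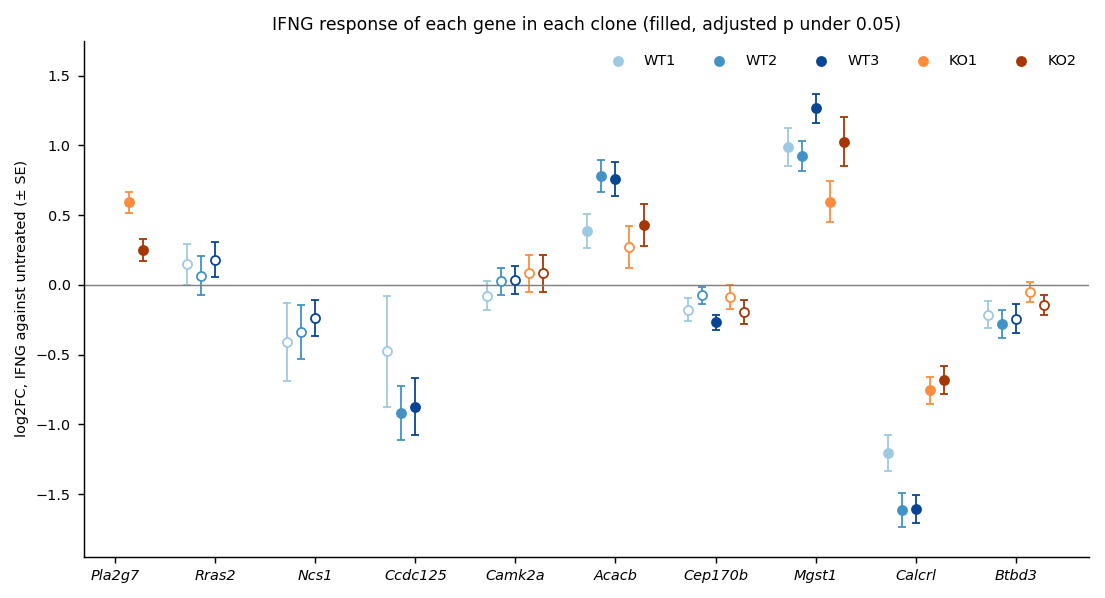
IFNG response (y axis, log2FC of IFNG against untreated libraries of a clone, bars ± SE) of the 10 genes in each of the 5 clones, with 3 libraries per treatment, where points are filled if the edgeR adjusted p was under the threshold. Calcrl is below 0 and Mgst1 above 0 in all 5 clones, Calcrl less so in KO1 and KO2, and clones with too few counts for a test have no point.

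With clones as terms in a fit to all 30 libraries, 8 of the 10 genes changed in WT cells, 3 up and 5 down, beside 44.4% of all genes, and 5 in KO cells, 3 up and 2 down, beside 39.9%. The genes that rose in both genotypes were Pla2g7 (0.40 ± 0.06 in KO), Acacb (0.62 ± 0.07 in WT and 0.35 ± 0.11 in KO) and Mgst1 (1.05 ± 0.08 and 0.80 ± 0.12), and those that fell in both were Calcrl (-1.48 ± 0.09 and -0.73 ± 0.08) and Cep170b (-0.18 ± 0.04 and -0.16 ± 0.06). Ncs1 (-0.31 ± 0.10), Ccdc125 (-0.84 ± 0.15) and Btbd3 (-0.25 ± 0.05) fell in WT cells. The WT response of Pla2g7, 3.35 ± 0.60, rests on 2 untreated and 26 IFNG counts. Too low to test in any single WT clone, Pla2g7 entered this fit through its KO libraries. Nothing is read from its place among the 8. Rras2, Ncs1 and Ccdc125 in turn entered through their WT libraries and were too low to test in single KO clones. Nothing is read from their lack of a KO call, nor from 5 of 10 in KO as a share. The KO call of Cep170b (edgeR adjusted p 0.0330) was lost in 8 of 39 alternative settings, among them without KO1 or KO2, and that of Acacb without KO2 or without its first IFNG library. In WT, the call of Ncs1 was lost without WT2 or WT3 and that of Cep170b without WT3.

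The response was called different by genotype for 2 of the 10 genes, Calcrl and Pla2g7, beside 1.02% of all genes (150 of 14682). This difference is also the KO-WT difference with IFNG less the untreated one. The genes were picked on KO-WT differences, so the p-values here are not independent of the selection and the values are a description. Pla2g7 was in the fit through its KO libraries, where it was high, so nothing is read from its call. Calcrl fell less in KO cells, with a difference of log2FC (KO minus WT) of 0.75 ± 0.12 (edgeR adjusted p 0.000360), and the responses of both KO clones lay nearer to 0 than those of all 3 WT clones. For Pla2g7 the difference was -2.96 ± 0.61 (adjusted p 0.00792), with the WT response set by the few counts given above, and the call was lost without WT2 or without WT3. With the response of each of the 5 clones taken as 1 value (limma), no gene of the 14682 passed. Calcrl then had a difference of 0.74 ± 0.17 and an adjusted p of 0.789, and was the only one of the 10 with an unadjusted p under 0.05. For the other 8 genes the difference did not pass, from -0.74 ± 0.48 for Ncs1 to 1.46 ± 0.73 for Ccdc125, which is too wide a range to show equal responses.

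The clones of a genotype were next compared. The genes were picked for a difference that KO1 and KO2 shared, which favours genes at like levels in both, so that nothing is read from how many differed between the KO clones. Of the 7 genes with enough counts this was 1, Pla2g7, in each treatment, with 23.2% of all genes called untreated and 14.9% with IFNG. Pla2g7 was lower in KO1 than in KO2, at 15.4 ± 1.03 against 23.1 ± 2.48 CPM (SD, n = 3) untreated and 22.7 ± 1.37 against 27.6 ± 1.102 CPM with IFNG. The log2FC of KO1 against KO2 was -0.59 ± 0.08 (edgeR adjusted p 7.42e-05) and -0.28 ± 0.07 (0.0169, lost without the second KO1 or KO2 library with IFNG). Mgst1 had the next largest value, 0.47 ± 0.20 untreated (adjusted p 0.104, passing without the count filter), with 3.05 ± 0.53 CPM in KO1 and 2.19 ± 0.58 CPM in KO2. The values of Camk2a, Acacb, Cep170b, Calcrl and Btbd3 lay between -0.27 and 0.16 and did not pass, which does not show that the clones were alike.

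Among the 3 WT clones, 6 of 9 testable genes differed untreated and 3 with IFNG, beside 59.5% and 52.1% of all genes. Ncs1 was lowest in WT1 (1.081 ± 0.0867 CPM, SD, n = 3), intermediate in WT2 (2.83 ± 0.11) and highest in WT3 (4.81 ± 0.22), a range of 2.13 on the log2 scale untreated and 2.30 with IFNG. Ccdc125 was at 0.506 ± 0.149 CPM in untreated WT1, 2.46 ± 0.19 in WT3 and 3.36 ± 0.34 in WT2, a range of 2.73 (2.28 with IFNG). For these 2 genes the WT1 clone stood between the KO clones and the other WT clones. Rras2 followed the order of Ncs1, with 3.33 ± 0.38, 4.13 ± 0.39 and 5.50 ± 0.18 CPM, and its ranges were 0.72 and 0.74. Acacb (0.56, highest in WT1), Cep170b (0.41, highest in WT3) and Calcrl (0.82, lowest in WT1) differed in untreated cells. Camk2a (0.08), Btbd3 (0.03) and Mgst1 (0.35) did not pass there.

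The genes around each of the 10 were then examined, none of which had been used to pick them. For the genes within 5 Mb of each centre, the mean level of a clone, as log2(CPM + 0.5), was taken relative to the average WT clone. A WT clone was taken relative to the remaining WT clones. The median over all genes with at least 1 CPM was subtracted. The distance was chosen after seeing the data. With the clone as the unit of the edgeR fit, no gene passed within 5 Mb of Btbd3, Mgst1 or Pla2g7. Of all genes, 1 of 16189 passed in that fit untreated and 1 of 16197 with IFNG. Of the genes around Btbd3, Mgst1 and Pla2g7, 10 of 19, 18 of 48 and 26 of 85 had an unadjusted p under 0.05 untreated. The share of all genes under that p is not given, so nothing is read from these counts. Around Btbd3 the median of 14 genes was 0.46 in KO1 and 0.38 in KO2 untreated and 0.52 and 0.48 with IFNG. In the KO-WT fit, 10 of 16 tested genes there were higher and 1 was lower in each treatment, where of all genes 1692 were higher and 1997 lower untreated (26.6% of 13886) and 1485 and 1773 with IFNG (23.9% of 13637). Less the median log2FC of these genes, the KO-WT log2FC of Btbd3 was 0.54 untreated and 0.63 with IFNG. The nearest tested genes were Jag1, a Notch ligand, 1140 kb below (log2FC 0.52 ± 0.14 and 0.87 ± 0.13) and Tasp1, a protease, 1244 kb above (0.46 ± 0.05 and 0.45 ± 0.06), and both passed in both treatments. The untreated call of Jag1 was lost without WT2, WT3, KO1 or KO2, while leaving out a clone moved the 10 genes to between 9 and 11.

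Around Mgst1 the medians of 34 genes were -0.25 in KO1 and -0.29 in KO2 untreated (-0.24 and -0.28 with IFNG), and 22 of 40 tested genes were lower and 1 was higher untreated (22 of 41 and 1 with IFNG). The 605 genes of chromosome 6 had medians of -0.24 in KO1 and -0.27 in KO2. Less its surroundings, the log2FC of Mgst1 was -0.77 untreated and -0.998 with IFNG. Around Cep170b the clones differed, with -0.35 in KO1 and 0.01 in KO2 untreated over 63 genes, while Cep170b itself stood at -1.46 in KO1 and -1.31 in KO2. The 434 genes of chromosome 12 had untreated medians of -0.35 in KO1 and 0.001 in KO2, so the KO1 shift was not confined to these surroundings. Around Pla2g7 the medians of 69 genes were 0.22 in KO1 and 0.21 in KO2, but also 0.26 in WT1 against the other WT clones. The 622 genes of chromosome 17 had untreated medians of 0.19 in KO1, 0.20 in KO2 and 0.24 in WT1. Of 75 tested genes within 5 Mb of Pla2g7, 36 were higher in KO untreated, 20 without KO1, and of 74 with IFNG 32 were higher. The IFNG count was 15 without KO1, 20 without WT2, 21 without WT3 or without KO2, and 50 without WT1. Over all genes, higher or lower, the IFNG calls also moved, from 3258 to 1411 without KO1 and 5992 without WT1. They were 2481 without WT2, 2451 without WT3 and 2934 without KO2. Untreated, they went from 3689 to 1674 without KO1. Around Calcrl the 22 genes had a median of -0.25 in untreated WT1, where Calcrl itself was lowest of the WT clones, and 0.09 and 0.03 in KO1 and KO2. For Rras2, Ncs1, Ccdc125, Camk2a and Acacb the untreated KO medians lay between -0.03 and 0.03. DNA copy number was not measured, and the part of the surroundings in the differences of Btbd3, Mgst1 and the other genes was not tested.

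**Figure D3:**
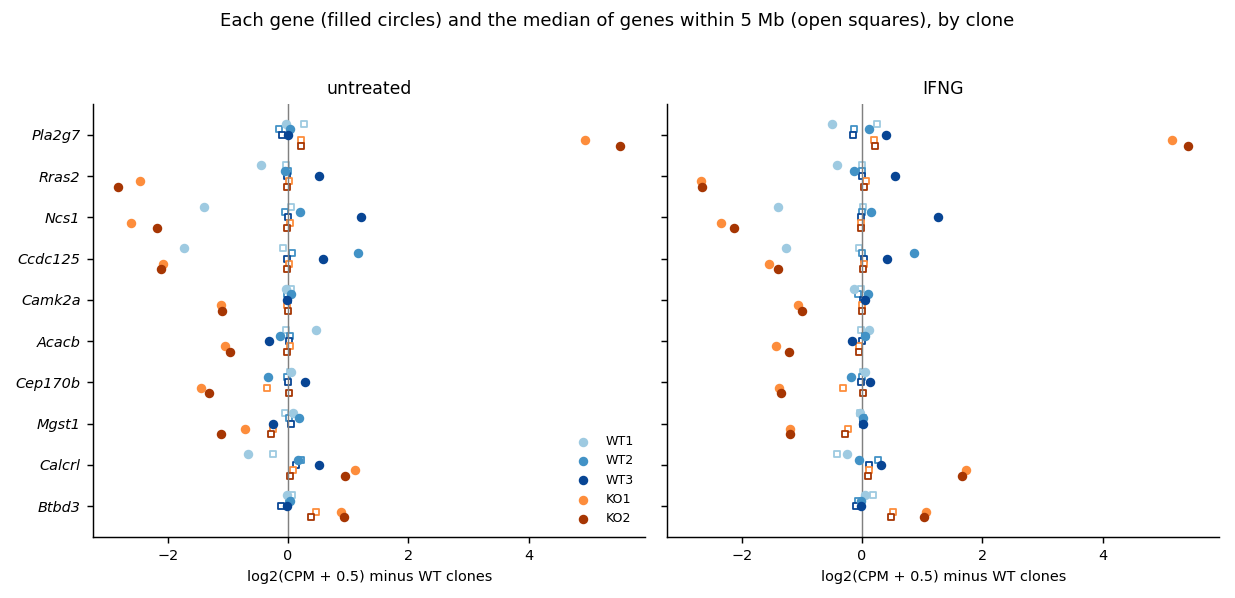
Difference of each clone from the mean of the WT clones (x axis, log2(CPM + 0.5), less the median of all genes; WT clones against the other WT clones) for each of the 10 genes (filled circles) and for the median of genes within 5 Mb (open squares), untreated (left) and with IFNG (right). The open squares stand at 0.38 to 0.52 around Btbd3 and at -0.24 to -0.29 around Mgst1 in both KO clones, at -0.35 around Cep170b in untreated KO1 and near 0 around Rras2, Ncs1, Ccdc125, Camk2a and Acacb.

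**Figure D4:**
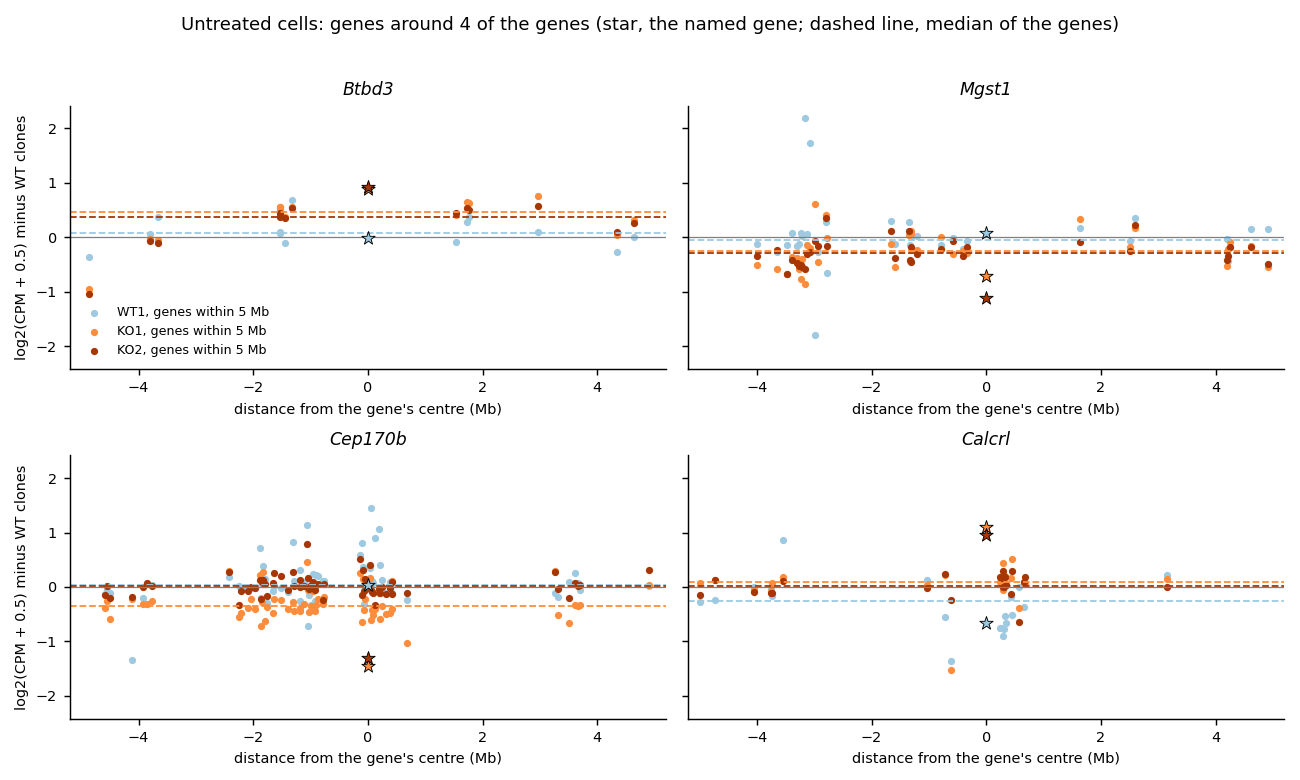
Untreated cells: difference from the WT clones (y axis, log2(CPM + 0.5), less the median of all genes) of every gene with at least 1 CPM within 5 Mb (x axis, distance in Mb from the centre of the gene) of Btbd3, Mgst1, Cep170b and Calcrl in WT1, KO1 and KO2, with the named gene as a star and the median of the genes as a dashed line. The stars of Btbd3, Mgst1 and Cep170b in KO1 and KO2 lie farther from 0 than the dashed lines of the same clones.

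Closer by, 104 genes within 500 kb of the 10 were tested untreated and 101 with IFNG. Of these, 10 were higher and 15 lower in KO untreated (24.04%, beside the 26.6% of all genes) and 11 and 11 with IFNG (21.8%, beside 23.9%). Their median log2FC was -0.02 untreated and -0.01 with IFNG. Without WT1 the counts were 53 and 52, without KO1 13 and 7, and without WT2 16 untreated. The calls over all genes moved too, from 3689 and 3258 to 6472 of 13552 and 5992 of 13382 without WT1. Without KO1 they were 1674 of 14441 and 1411 of 14042, and without WT2 2957 of 13810 untreated. When the libraries of a clone were summed and the clone was the unit, no neighbour passed. Of all genes, 1 of 16189 passed untreated and 1 of 16197 with IFNG, so nothing is read from this. Of 116 and 117 neighbours in that fit, 8 and 7 had an unadjusted edgeR p under 0.05. The share of all genes under that p is not given. With the libraries as units, a set of 15 neighbours passed in the same direction in both treatments, and 14 of these lay between -0.35 and 0.37. The exception was Enpp4, a phosphodiesterase gene 484 kb from Pla2g7, which was lower (-0.75 ± 0.17 untreated and -0.58 ± 0.20 with IFNG), in the opposite direction to Pla2g7. Its untreated call was lost without KO2, and its IFNG call in 18 of 25 alternative settings.

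The other 14 were Kctd10, Ube3b, Coro1c and Iscu near Acacb, Pld4, Cdca4, Pacs2 and Tedc1 near Cep170b, Dera and Strap near Mgst1, Selenoh near Calcrl, Csf1r near Camk2a, Ccnb1 near Ccdc125 and Gpr107 near Ncs1. Csf1r, the receptor for macrophage colony-stimulating factor 117 kb above Camk2a, was higher in KO by 0.22 ± 0.04 untreated and 0.29 ± 0.05 with IFNG, while Camk2a was lower. Gpr107, 27.05 kb below Ncs1, was higher by 0.22 ± 0.04 and 0.27 ± 0.05, while Ncs1 was lower. Pld4, 14.1 kb above Cep170b, was higher by 0.29 ± 0.09 and 0.29 ± 0.10, an IFNG call that held in 11 of 25 alternative settings, as that of Ccnb1 did in 8 of 25. Of these 14, Kctd10, Csf1r and Gpr107 kept both calls whichever clone was left out. Without KO1, 10 others lost at least 1 call, and Pld4 lost both without WT2, WT3 or KO2. Kctd10, 113 kb above Acacb, was higher by 0.19 ± 0.03 and 0.21 ± 0.04, and Ung, 7.21 kb below it, did not pass, with 0.0024 ± 0.0548 and -0.18 ± 0.09.

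Next to the 4 genes that were near absent in 1 genotype, 1 of the 8 nearest tested genes passed untreated and 2 with IFNG, beside 26.6% and 23.9% of all genes. Gpr107 below Ncs1 passed in both. Slc25a27, 29.7 kb above Pla2g7, had a log2FC of -0.15 ± 0.31 and -0.41 ± 0.27, and Tnfrsf21, a death receptor gene 479 kb below it, had 0.29 ± 0.16 untreated and was higher with IFNG (0.54 ± 0.11, edgeR adjusted p 0.00232, lost without KO2). Copb1, 97.8 kb above Rras2, had -0.0029 ± 0.0324 and 0.05 ± 0.03, and Far1, 475 kb below, -0.17 ± 0.10 and -0.23 ± 0.10. Hmcn2, 18.4 kb above Ncs1, had 0.59 ± 0.44 and 0.91 ± 0.42. Ak6 and Cdk7, which flank Ccdc125 at 3.36 and 5.39 kb, had 0.09 ± 0.06 and 0.15 ± 0.05 untreated, and neither passed in either treatment. Tcof1, 76.6 kb below Camk2a, Zbtb42, 37.7 kb below Cep170b, Pik3c2g, 1430 kb above Mgst1, and Gm13694 and Gm13710 on either side of Calcrl did not pass where tested. Dera, 283 kb below Mgst1, was lower (-0.23 ± 0.04 and -0.26 ± 0.06).

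Genes that work with the 10 were taken as 10 lists, 1 for each gene, with 154 genes in all. The lists were chosen with earlier results of these data known, so the shares below are a description. Of 116 tested untreated, 15 were higher and 26 lower in KO (35.3%, beside 26.6% of all genes), and of 118 with IFNG, 17 were higher and 23 lower (33.9%, beside 23.9%). The median log2FC was -0.04 and -0.01, beside -0.00040 and 0.00097 over all genes. The counts were 74 and 79 without WT1 and 25 and 21 without KO1, where the calls over all genes moved too, as given above. No listed gene passed with the clone as the unit, where 1 gene of all passed in each treatment. In that fit 22 of 124 and 22 of 122 listed genes had an unadjusted edgeR p under 0.05. The share of all genes under that p is not given, so nothing is read from it. By the rule for naming, an absolute log2FC of at least 1, 3 genes were to be named: Cpt1c, Mras and Camkk1. The further listed genes below were named after their values were seen.

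For Pla2g7, 1 gene of the PAF and phospholipase list was higher and 3 were lower untreated, of 11 tested. Ptafr, the PAF receptor, was higher in KO by 0.36 ± 0.07 untreated and 0.59 ± 0.09 with IFNG (edgeR adjusted p 0.00129 and 0.000205). Pla2g15, a lysosomal phospholipase, was lower (-0.23 ± 0.05 and -0.48 ± 0.12), as were Lpcat2 and Pla2g4a untreated. Pafah2, the intracellular relative of Pla2g7, had -0.03 ± 0.07 untreated and was lower with IFNG (-0.20 ± 0.06). For Calcrl, none of 6 tested genes passed untreated. Ramp2, which makes it an adrenomedullin receptor, was present at 61.9 to 76.6 CPM in every untreated library (-0.08 ± 0.04, adjusted p 0.192), whereas Ramp1, its partner for calcitonin gene-related peptide, had no count in any WT or untreated KO library. The ligand genes Calca and Calcb and the receptor gene Calcr had no count in any library, and Adm, the adrenomedullin gene, stayed at or below 0.536 CPM.

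For Btbd3, Btbd9 (0.22 ± 0.05 and 0.24 ± 0.05) and Nedd8 were higher and Btbd2 (-0.43 ± 0.09 and -0.52 ± 0.10) lower, of 8 tested, while Cul3, the cullin that BTB adaptors join, did not pass. For Rras2, the Ras and Rap list gave 2 higher and 5 lower of 22 untreated. Rgl1, a Ral exchange factor, was lower (-0.88 ± 0.10 and -0.95 ± 0.08, edgeR adjusted p 1.59e-05 and 1.41e-06) and Ralgds, another, higher (0.71 ± 0.14 and 0.38 ± 0.10). Mras was lower with IFNG (-1.77 ± 0.42) at 0.203 to 2.07 CPM in WT, a call lost without KO1. Per length, untreated WT cells held 33.3 FPKM of Nras, 10.99 of Rras and 1.22 of Rras2. Nras was higher in KO untreated by 0.13 ± 0.04, and Rras and Hras did not pass.

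For Ncs1, 3 of 13 listed genes had enough counts. Its kinase partner Pi4kb was lower untreated (-0.10 ± 0.03) and Hpcal1 and Ric8b did not pass, while the related sensors Hpca, Vsnl1 and Ncald stayed at or below 0.112 CPM in every library. For Ccdc125, 1 of 9 tested genes of the small GTPases that steer the actin cytoskeleton and of their inhibitors was higher untreated (Rhoa, 0.16 ± 0.03) and 2 were lower (Arhgdib, an inhibitor of such GTPases, -0.27 ± 0.03, and Rac2, -0.14 ± 0.03). For Camk2a, Camkk2, an upstream kinase, was higher (0.51 ± 0.06 and 0.53 ± 0.08), as was Calm2 (0.34 ± 0.07 and 0.38 ± 0.06). Camkk1 was lower with IFNG (-1.56 ± 0.35), on at most 0.937 CPM and not without KO1. The paralogs Camk2d (5.48 FPKM in untreated WT, beside 1.16 of Camk2a) and Camk2g (5.18 FPKM) did not pass.

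For Acacb, 4 of 20 tested genes of fatty acid metabolism were higher and 6 lower in each treatment. The lower ones were the carnitine acyltransferase genes Cpt1a (-0.68 ± 0.12 and -0.53 ± 0.10), Cpt1b (-0.91 ± 0.21 and -0.84 ± 0.20), Cpt2 (-0.27 ± 0.05 and -0.31 ± 0.07) and Crat, as well as Mlycd, which removes malonyl-CoA (-0.62 ± 0.07 and -0.53 ± 0.10), and Hlcs. The carnitine carrier gene Slc25a20 (-0.10 ± 0.05 and -0.06 ± 0.07), the cytosolic carboxylase Acaca (-0.02 ± 0.07 and -0.0057 ± 0.0620), Fasn and Acly did not pass, and per length Acaca (8.26 FPKM in untreated WT) exceeded Acacb (0.557). Cpt1c was higher (1.95 ± 0.54 and 1.71 ± 0.50), but this rested on KO1, with 9.12 CPM against 1.01 CPM in KO2 untreated, and without KO1 the values were -0.36 and -0.38. Its calls were lost without WT3 too. For Cep170b, 4 of 9 tested centrosome genes were lower and none higher in each treatment: Odf2 (-0.45 ± 0.04 and -0.42 ± 0.04), Pcm1, Nin and Kif2c. Its paralog Cep170 had -0.06 ± 0.04 and -0.0016 ± 0.0466. For Mgst1, 3 of 19 were higher (Gpx1, 0.68 ± 0.11, Gss and Alox5ap) and 3 lower untreated (Gstz1, -0.71 ± 0.11, Gstm1, -0.62 ± 0.06, and Alox5, -0.89 ± 0.26), and Mgst3, a family member, did not pass.

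The genes most like each of the 10 were found by Pearson correlation of log2(CPM + 0.5) over the 10 means of clone and treatment. These means share 5 clones and the selection of the genes, so that the values are a description. Ncs1 was closest to Ltbp4 (r = 0.995), which binds latent TGF-beta and ran from 0.903 CPM in KO1 to 16.0 CPM in WT3, and to Fgf11 (0.990). Acacb was closest to Map4k4 (0.979) and Art3 (0.968), a gene that was at or below 0.325 CPM in the KO clones and at 4.07 to 22.2 CPM in the WT clones. Tlr8 (0.974) was among the genes closest to Calcrl, and Mgst1 was closest to Dusp16 (0.991) and Clec4a1 (0.985), which lie on chromosome 6 as Mgst1 does. Cep170b was closest to Adamtsl5 (0.986) and Coro7 (0.983), and Camk2a to Kdelc1 (0.995) and Copg1 (0.993). Rras2 was closest to Bcl2l13 (0.988) and Sec61a1 (0.985), Ccdc125 to Cyp20a1 (0.982) and Nfx1 (0.979), Pla2g7 to Xrn2 (0.985) and Wdr1 (0.983), and Btbd3 to Cebpz (0.978) and Glo1 (0.977). Several of these partners had far smaller ranges than the gene they resembled: Xrn2 ran from 233 to 342 CPM.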

How the data were processed

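Poly(A) RNA of 30 libraries was sequenced by the authors, who used BBDuk for trimming and HISAT2 2.1.0 for alignment to mm10, kept uniquely mapped fragments, merged technical replicates with SAMtools 1.10 and counted fragments per gene by strand with featureCounts 1.6.2, so that the deposited values are raw counts. Per the file headers the annotation was Gencode vM18, while the study's methods name RefSeq. A fragment over several genes was counted for each. The study's own tests used DESeq2 1.26.0. Labels name different RNA inputs and adapter kinds without tying them to libraries, so that such batches could not be examined. The columns named for the clones wtc1 and wtc3 were taken as WT2 and WT3, because deposited tables of WT2 and WT3 alone hold those columns. The other 13 deposited tables were not used.

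Genes were filtered by filterByExpr, scaled by TMM over 14870 genes for levels, and tested by the quasi-likelihood test of edgeR 4.0.16 in R 4.3.3, with p-values adjusted over all genes tested and a threshold of 0.05. FPKM divides by the exon length of a gene. Libraries of a clone were treated as replicates, with the clone as the unit in an alternative by edgeR on summed counts or by limma 3.58.1. DESeq2 1.42.0, other count filters, neighbour windows of 250 kb and 1 Mb, and leaving out each library or clone were also run. The scripts were tested on simulated data. No pair of libraries of a group differed by as little as sampling noise (chi-square per degree of freedom at least 1.95). The 10 genes and the gene lists were chosen with earlier results of these data known. Neighbours were named if called in the same direction in both treatments or nearest on either side, and related genes if called with an absolute log2FC of at least 1. No genome sequence was used, and promoter windows came from RefSeq tables. Some genes that these rules name are not reported here.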

Additional observations from a re-analysis of the deposited data

Results flagged for a closer look

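With libraries as units, the IFNG response was called different between KO and WT cells for 2 of the 10 genes, beside 1.02% of all genes (150 of 14682). The difference is built from the KO-WT differences on which the genes were picked, so the values are a description. Calcrl, the receptor chain for adrenomedullin and calcitonin gene-related peptide, fell less in KO cells, with a difference of log2FC of 0.75 ± 0.12 (edgeR adjusted p 0.000360). Its fall was smaller in both KO clones than in all 3 WT clones. Pla2g7, the PAF acetylhydrolase gene, had a difference of -2.96 ± 0.61 (edgeR adjusted p 0.00792), with 2 untreated and 26 IFNG counts behind its WT response. It was in this fit through its KO libraries, so nothing is read from this call. With each clone as 1 value, limma gave adjusted p-values of 0.789 and 0.917. No other difference in the IFNG response passed among the 10 genes.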

How the results depend on the processing

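The number of genes called kept within 1.5 times its value, under every alternative run, for the IFNG responses within clones (20 of 41 tests), by genotype (13 of 20) and the differences among WT clones (9 of 18). Over all genes, 21.2% to 36.1% were called within single clones, 44.4% in WT and 39.9% in KO cells. Among WT clones, 59.5% of all genes were called untreated and 52.1% with IFNG. The 13 hold the WT call of Pla2g7, from which nothing is read. For the difference in response (2 genes), a minimum of 10 counts in every library gave 1, the response of each clone as the unit in limma gave 0, and leaving out a library or clone gave 1 to 2. For KO1 against KO2 (2 calls), 4 passed without a count filter, and leaving out a library gave 1 to 3. For the neighbours, windows of 250 kb and 1 Mb gave 12 and 39 calls untreated (25 at 500 kb) and 13 and 37 with IFNG (22). Leaving out a library or clone gave 13 to 53 and 7 to 52. For the related genes it gave 25 to 74 (41) and 21 to 79 (40). The calls over all genes ran from 1674 to 6472 untreated and from 1411 to 5992 with IFNG when a clone was left out. Counts summed per clone gave 0 neighbours and 0 related genes in both treatments, where the fit has 5 samples in place of 15. Of all genes, 1 passed in each treatment. The rise of Cpt1c reversed without KO1, at -0.36 untreated and -0.38 with IFNG, and leaving out a clone took it up to 2.80 and 2.54. The cause of these changes was not tested. Depth limits Pla2g7 in WT and Rras2, Ncs1 and Ccdc125 in KO cells. No paired analysis was possible because the columns of the count table carry no replicate numbers that tie libraries of different groups, so the planned fit with a replicate block was not run.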
